A study of Mus musculus with 2 samples.

Results

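The 10 genes Rpgr, Rpgrip1, Cep290, Iqcb1, Bbs1, Bbs4, Ift88, Arl3, Unc119 and Rp2 serve the connecting cilium of photoreceptors and the movement of proteins through it. They were chosen by symbol from the 32285 genes of the count matrices, and all 10 were found. Mouse retinas exposed to short-wavelength light were compared with retinas exposed to full-spectrum white light by single-cell RNA sequencing. Exposure began at postnatal day 14 and lasted 2 weeks, and each condition had 1 library of retinal cells. The genotype, strain and sex of the mice and the number pooled are not given in the sources used here. With 1 library per condition there was no test between conditions, and every difference is one between these libraries. All intervals are 95% intervals that cover counting error only.

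The connecting cilium is the narrow bridge between the inner segment, where a photoreceptor makes its proteins, and the outer segment, where light is detected. Rpgr encodes an X-linked retinitis pigmentosa protein, Rpgrip1 the partner that anchors it in the connecting cilium, Cep290 a linker between microtubules and membrane there, and Iqcb1 (nephrocystin 5) a partner of Cep290. Bbs1 and Bbs4 encode subunits of the BBSome, a coat complex that carries membrane proteins into and out of cilia, and Ift88 a core subunit of intraflagellar transport complex B (IFT-B). Unc119 encodes a carrier of acylated proteins such as transducin, Arl3 the small GTPase that makes it release its cargo, and Rp2 the GTPase-activating protein of Arl3. Mutations in the human counterparts of most of these genes cause inherited retinal degeneration.

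RNA molecules were counted by unique molecular identifiers (UMIs), 51681469 over 16106 barcodes of the short-wavelength library and 20952589 over 5707 barcodes of the white-light library. The libraries share 26 barcode sequences. Marker genes, none among the 10, assigned 307 short-wavelength and 98 white-light barcodes to cones, 177 and 54 to bipolar cells, 88 and 33 to Müller glia, 41 and 18 to microglia, and 13209 and 4979 to rods. Barcodes with markers of another class but too much rod RNA were left out, 178 and 223 in number. Each class was checked with 3 genes kept out of the assignment, all of which were highest in their own class in both libraries. Cx3cr1, a microglial receptor gene, stood at 2592 and 1911 UMIs per 1000000 UMIs (CPM) in short-wavelength and white-light microglia, against 6.44 and 6.03 CPM in rods. The rod genes Cngb1 and Esrrb show how much rod RNA the other classes held: they stood at 8.04% to 23.98% of their rod level there. A gene within that range of its rod level is read here as background, though the range is pooled over classes. Its upper end is from white-light microglia. Cngb1 and Esrrb stood at 8.04% to 20.3% in bipolar cells and at 12.7% to 16.3% in Müller glia. The remaining rod gene kept out, Rom1, which cones are known to express as well, stood at 42.2% and 37.04% in cones and at 12.7% to 20.2% in the other classes.

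In cones, all 10 genes lay above the range of Cngb1 and Esrrb, though Ift88 in short-wavelength cones lay below Rom1, and most were close to or below their rod level. Unc119 was almost as abundant in cones as in rods, at 2337 CPM against 2541 CPM under short-wavelength light and 2434 CPM against 2643 CPM under white light. The ratio of cones to rods was 0.9198 (0.893 to 0.947) and 0.921 (0.877 to 0.967). For Arl3 it was 0.845 (0.799 to 0.893) and 0.753 (0.68 to 0.832). The carrier and its GTPase were thus both within 1.5-fold of rods, but below them in both libraries.

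Rpgrip1 stood at 2339 CPM in cones against 3545 CPM in rods under short-wavelength light, and at 1921 against 3203 CPM under white light. Rpgr stood at 206 against 417 CPM and at 168 against 359 CPM, and Cep290 at 354 against 734 CPM and at 353 against 695 CPM. Rpgr, Cep290 and Ift88 had the lowest cone levels relative to rods, with Ift88 at a ratio of 0.364 (0.286 to 0.456) and 0.442 (0.297 to 0.634). These 3 genes were more than 2-fold lower in short-wavelength cones than rods, where 13.1% of all genes were, and 2 of them, Rpgr and Ift88, in white-light cones, where 15.7% were. Cep290, with ratios of 0.482 (0.447 to 0.5199) and 0.508 (0.445 to 0.577), and Rpgr, with 0.493 (0.445 to 0.544) and 0.468 (0.386 to 0.563), lie close to the limit. The count of 3 became 1 with doublets kept, with no rod limit, or with a total without mitochondrial, ribosomal, haemoglobin and marker genes. None of the 10 was more than 2-fold higher in cones, where 10.8% and 9.61% of all genes were. The minimum of 50 UMIs counted rods as well. In cones alone Rp2 (19 and 7 UMIs) fell short of it, as did Iqcb1 (29), Bbs1 (28) and Ift88 (30) in the white-light library.

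Cones and rods were closer for Iqcb1, Bbs1 and Bbs4. The ratio was 1.04 (0.843 to 1.26) and 0.837 (0.557 to 1.21) for Iqcb1, and 1.08 (0.906 to 1.28) and 0.712 (0.471 to 1.04) for Bbs1. It was 0.827 (0.718 to 0.948) and 0.917 (0.731 to 1.14) for Bbs4. Intervals of Iqcb1 and Bbs1 include 1 in both libraries, so a difference was not detectable at this depth. The median ratio over the 10 genes was 0.836 and 0.733, and over all genes tested 0.884 and 0.877.

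Bipolar cells had part of the rod level of some of the genes, and more than rods of Iqcb1. Rp2 could not be told apart from its rod level there, with ratios of 1.19 (0.642 to 2.02) and 1.47 (0.583 to 3.09) on 14 and 7 UMIs. Rpgr stood at 55.4% and 55.7% of its rod level, at 231 and 200.2 CPM, and Bbs4 at 71.6% and 69.7%, at 94.3 and 95.5 CPM. Unc119 stood at 42.3% and 37.5%, at 1075 and 992 CPM. Rpgrip1, at 12.4% and 14.8%, was within the background range, and Cep290, at 25.9% and 23.9%, lay around its upper edge. Both Cep290 levels were above those of Cngb1 and Esrrb in bipolar cells (8.04% to 20.3%). Of the 10 genes, 5 and 6 were more than 2-fold lower in bipolar cells than rods, where 22.6% and 25.5% of all genes were. The sixth, Bbs1 under white light, rests on 2 UMIs in bipolar cells and passed the minimum through its rod counts. None was more than 2-fold higher, where 17% and 13.9% were.

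Iqcb1 was the exception, at 95.1 CPM in bipolar cells against 51.5 CPM in rods under short-wavelength light, and 100.1 against 50.7 CPM under white light. The ratio was 1.85 (1.51 to 2.23) and 1.97 (1.42 to 2.67). Its UMIs were spread over 77 of 177 and 23 of 54 bipolar cells.

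In Müller glia, 8 of the 10 genes were more than 2-fold lower than in rods in each library, where 26.2% and 30.1% of all genes were. Several of them passed the minimum through their rod counts, such as Bbs1 on 11 and 4 UMIs and Bbs4 on 14 and 6. Rpgrip1 (15.6% and 12.4% of the rod level), Unc119 (15.02% and 13.6%) and Bbs4 (20.2% and 17.1%) were within the background range, and the intervals of Ift88, on 19 and 10 UMIs, reach into it. Arl3 had ratios of 0.307 (0.255 to 0.365) and 0.257 (0.191 to 0.338), so its interval was above the range in the short-wavelength library and reached into it in the white-light library. Against Cngb1 and Esrrb in Müller glia alone (12.7% to 16.3%), the intervals of Ift88 and Arl3 lay above in both libraries. The intervals of Bbs4 reached into that narrower span. Iqcb1 again exceeded rods, at 89.3 and 85.8 CPM or 1.73 (1.27 to 2.31) and 1.69 (1.06 to 2.58) times its rod level. Rp2 was the gene more than 2-fold higher, where 18% and 15.3% of all genes were, at ratios of 2.51 (1.32 to 4.34) and 2.52 (1 to 5.303) on 13 and 7 UMIs.

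In microglia, 9 and 8 of the 10 genes were more than 2-fold lower than in rods, where 41.9% and 39.9% of all genes were. Several of these rest on few microglial UMIs and passed the minimum through their rod counts. Iqcb1, Bbs1 and Bbs4 had 4 UMIs each in the short-wavelength library. In the white-light library Bbs1 and Bbs4 had 4 each and Ift88 had 2, and the interval of Bbs1 (0.129 to 1.22) includes 1. Rp2 had the opposite order, at 86.6 CPM (25 UMIs) in short-wavelength microglia against 9.84 CPM in rods, and 54.6 CPM (8 UMIs) against 10.8 CPM in the white-light library. The ratio was 8.803 (5.62 to 13.2) and 5.04 (2.15 to 10.2), and 18.4% and 16.5% of all genes were more than 2-fold higher there. Rp2 UMIs were found in 17 of 41 and 7 of 18 microglia, and in 333 of 13209 and 159 of 4979 rods, which hold fewer UMIs per cell. Rpgrip1 stood at 364 and 833 CPM in short-wavelength and white-light microglia, but 40 of its 105 short-wavelength and 70 of its 122 white-light UMIs lay in 3 cells each. Rod RNA was also higher in white-light microglia, with Cngb1 at 13.2% and 20.5% of its rod level, and its part in the Rpgrip1 levels was not tested.

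**Figure D1:**
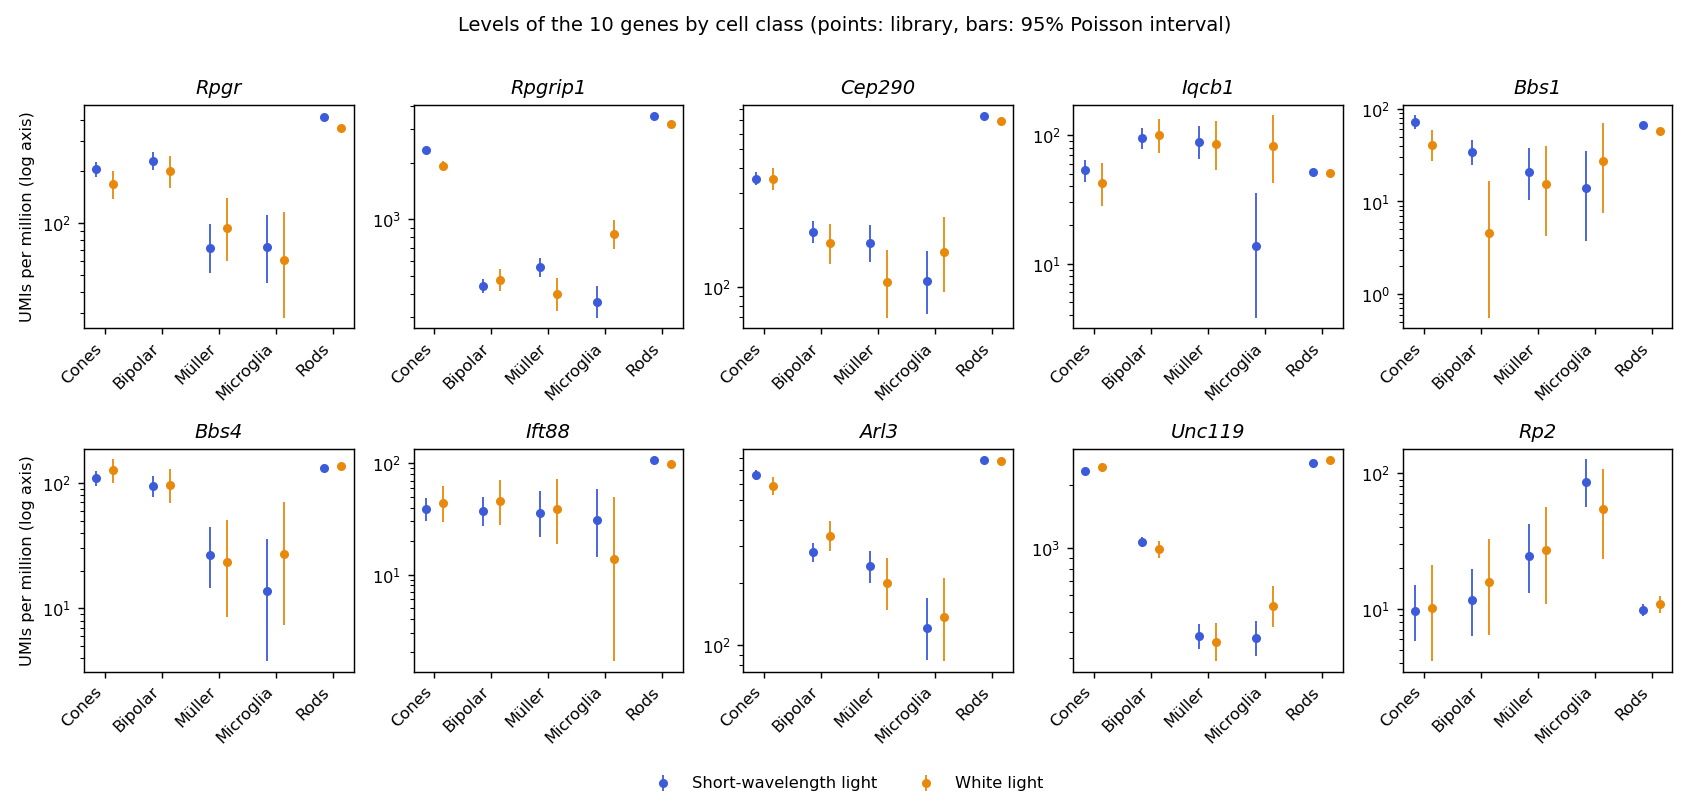
Level of each of the 10 genes in UMIs per 1000000 UMIs (log axis) in cones, bipolar cells, Müller glia, microglia and rods, with points for the short-wavelength and the white-light library and bars for 95% Poisson intervals. Unc119 is almost level between cones (2337 and 2434 CPM) and rods (2541 and 2643 CPM), Iqcb1 lies higher in bipolar cells (95.1 and 100.1 CPM) than in rods (51.5 and 50.7 CPM), and Rp2 is highest in microglia (86.6 and 54.6 CPM).

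Across the 5 classes, Rpgrip1, Cep290, Ift88, Arl3 and Unc119 were highest in rods in both libraries. Cones came next for Rpgrip1, Cep290, Arl3 and Unc119. Ift88 did not differ beyond its intervals between cones, bipolar cells and Müller glia. Rpgr was highest in rods, and its levels in bipolar cells and cones had overlapping intervals. Levels of Rp2 in cones, bipolar cells and rods had overlapping intervals too.

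Promoter sequences are shown for 4 genes that differ in their order of classes. Rpgrip1 and Bbs1 were each higher in rods and cones than in the other classes, and Iqcb1 and Rp2 were higher in another class than in rods. The sequences run from 250 bases before to 50 bases after the RefSeq start site (GRCm38.p6). Capitals mark TAATCC (a core site of the photoreceptor factor CRX), TGCTGA (a half-site of the rod factor NRL) and GTTGCC (a half-site of the ciliary RFX factors), each on either strand.

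Rpgrip1 (chr14:52110653-52110952, plus strand): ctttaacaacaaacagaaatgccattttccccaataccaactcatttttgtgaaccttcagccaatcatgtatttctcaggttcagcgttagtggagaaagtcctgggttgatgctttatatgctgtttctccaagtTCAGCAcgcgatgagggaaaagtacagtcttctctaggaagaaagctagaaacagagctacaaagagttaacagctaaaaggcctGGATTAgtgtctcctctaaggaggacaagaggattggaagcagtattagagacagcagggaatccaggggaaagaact
Bbs1 (chr19:4906578-4906877, minus strand): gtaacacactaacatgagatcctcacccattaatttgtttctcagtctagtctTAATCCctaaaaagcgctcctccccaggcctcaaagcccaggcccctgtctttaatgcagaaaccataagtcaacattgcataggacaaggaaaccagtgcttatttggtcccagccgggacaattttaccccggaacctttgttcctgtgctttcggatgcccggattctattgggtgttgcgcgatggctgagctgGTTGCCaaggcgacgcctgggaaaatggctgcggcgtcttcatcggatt
Iqcb1 (chr16:36828150-36828449, plus strand): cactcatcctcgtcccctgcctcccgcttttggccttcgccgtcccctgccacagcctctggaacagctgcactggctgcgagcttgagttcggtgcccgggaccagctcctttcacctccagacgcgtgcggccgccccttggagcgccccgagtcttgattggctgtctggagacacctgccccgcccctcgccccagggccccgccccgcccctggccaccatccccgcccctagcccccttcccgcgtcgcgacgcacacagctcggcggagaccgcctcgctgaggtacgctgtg
Rp2 (chrX:20364231-20364530, plus strand): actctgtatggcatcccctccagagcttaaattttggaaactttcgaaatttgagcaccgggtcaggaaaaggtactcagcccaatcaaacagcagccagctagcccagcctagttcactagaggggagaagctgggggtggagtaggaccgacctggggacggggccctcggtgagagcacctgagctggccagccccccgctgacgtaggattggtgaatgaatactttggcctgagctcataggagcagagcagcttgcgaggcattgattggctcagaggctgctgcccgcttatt

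The Rpgrip1 window holds a CRX core site that starts 28 bases before the start site and an NRL half-site 113 bases before it. The Bbs1 window holds a CRX core site 197 bases before the start site and an RFX half-site 1 base from it. Neither the Iqcb1 nor the Rp2 window holds any of the 3 strings. The windows of Rpgr, Cep290, Arl3 and Bbs4, which were highest in rods in both libraries, hold none of them either. For Bbs4 the white-light interval of cones relative to rods includes 1. The window of Ift88, also highest in rods, holds the RFX letters alone. Unc119, likewise highest in rods, has the CRX and the NRL letters, in different windows. Of all 32851 windows of that length, 7.06% held the CRX letters, 19.5% the NRL letters and 12.5% the RFX letters. Among the 13 windows of the 10 genes, the CRX letters were in 3 (Rpgrip1, Bbs1 and Unc119), the NRL letters in 2 (Rpgrip1 and Unc119) and the RFX letters in 2 (Bbs1 and Ift88). No matches overlap in the printed windows, and a match describes the letters alone.

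In rods, where counts were deepest, Rpgr, Rpgrip1 and Bbs1 were higher under short-wavelength light, and Unc119 was slightly lower. Rpgr stood at 417 CPM (15684 UMIs) in short-wavelength rods and 359 CPM (6073 UMIs) in white-light rods, a ratio of 1.16 (1.13 to 1.196). Rpgrip1 stood at 3545 and 3203 CPM, a ratio of 1.11 (1.096 to 1.12), and Bbs1 at 66.8 and 57.5 CPM, a ratio of 1.16 (1.08 to 1.25). These 3 genes were higher past 1.1-fold, where 20.2% of all 12877 genes tested were. Rp2 was lower past 1.1-fold, where 19.5% were, at 9.84 and 10.8 CPM and a ratio of 0.909 (0.7595 to 1.09), an interval that includes 1. Rp2 and Rpgrip1 lie just past the limit, and Ift88 is the nearest gene inside it on the higher side.

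The other genes of the connecting cilium and transport differed less in rods. Cep290 stood at 734 and 695 CPM, a ratio of 1.06 (1.03 to 1.08), and Ift88 at 106 and 99.3 CPM, a ratio of 1.07 (1.01 to 1.13). Unc119 stood at 2541 and 2643 CPM, a ratio of 0.962 (0.951 to 0.972). Its partner Arl3 did not differ beyond counting error, at 781 and 775 CPM and a ratio of 1.01 (0.987 to 1.03). The intervals of Iqcb1 (ratio 1.02, 0.938 to 1.103) and Bbs4 (ratio 0.9601, 0.914 to 1.01) also include 1.

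**Figure D2:**
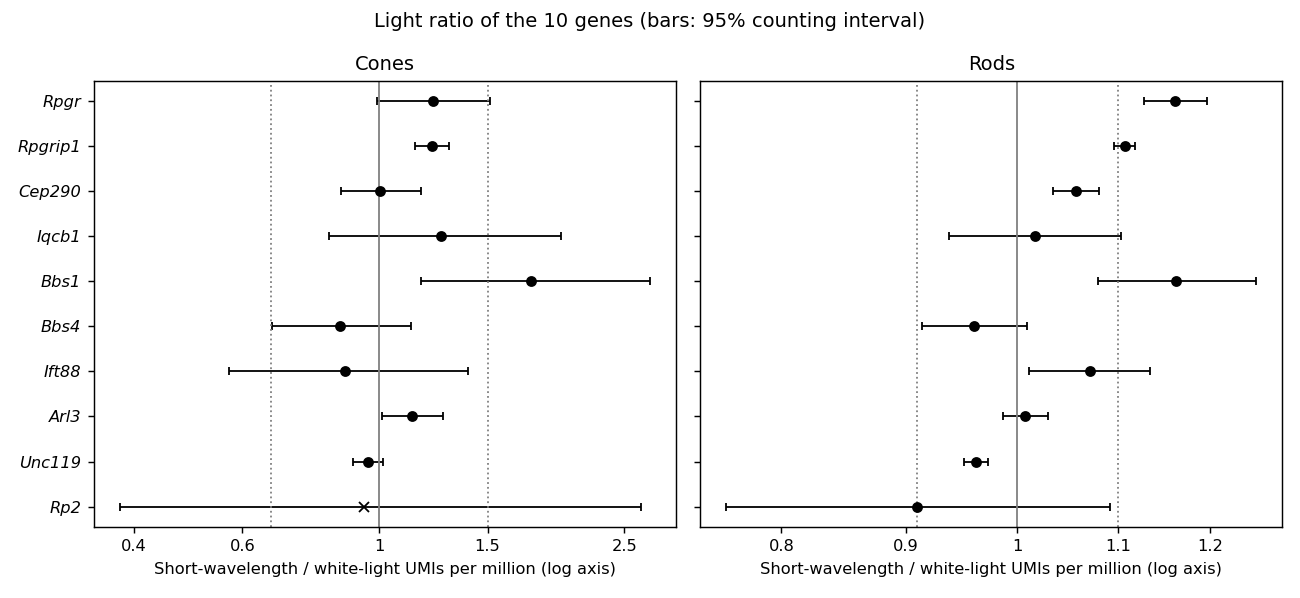
Ratio of short-wavelength to white-light UMIs per 1000000 UMIs (log axis) for the 10 genes in cones and in rods, with 95% counting intervals as bars, a cross for Rp2 in cones, which had under 50 UMIs, and dotted lines at 1.5-fold (cones) and 1.1-fold (rods). Rpgr (1.16), Bbs1 (1.16) and Rpgrip1 (1.11) lie past the upper line in rods, and Bbs1 (1.76) in cones.

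The libraries differed in depth, with a median of 2321 UMIs per short-wavelength rod and 2730 per white-light rod. With every cell thinned to 1000 UMIs, Rpgr UMIs were found in 31.1% (30.3% to 31.9%) of short-wavelength and 27.2% (25.95% to 28.5%) of white-light rods, and without thinning in 55.6% and 53.6%. Rpgrip1 UMIs were found in 93.7% (93.3% to 94.1%) and 91.7% (90.9% to 92.5%) after thinning, and in 97.98% and 97.4% before it. The thinned shares of the other 8 genes had overlapping intervals. In microglia, which show the background, thinned shares were 8.11% and 5.56% for Rpgr and 24.3% and 38.9% for Rpgrip1. Too shallow to be thinned were 6 short-wavelength rods and 254 white-light rods. The 5 red blood cell markers (Hba-a1, Hba-a2, Hbb-bs, Hbb-bt and Alas2) were all detected in rods, with a summed level of 55.5 CPM in those of the short-wavelength library and 93.99 CPM in those of the white-light library. Among rods with no haemoglobin UMI, Rpgr and Rpgrip1 were higher past 1.1-fold under short-wavelength light and Bbs1 was not.

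Rods also differed in Malat1, a nuclear non-coding RNA, at 56144 CPM under short-wavelength and 50763 CPM under white light, and several of the 10 genes varied with it from rod to rod. Rods of both libraries were divided together into 5 bins of equal size by Malat1 share. Bin 1, with the least Malat1, held 16.7% of short-wavelength and 28.7% of white-light rods, and bin 5, with the most, 23.02% and 11.99%. Short-wavelength rods thus lay more in the bins with much Malat1.

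Rpgr, Rpgrip1, Cep290, Ift88 and Iqcb1 had higher levels in bin 5 than in bin 1 in both libraries. From bin 1 to bin 5, Rpgr stood at 262, 413, 447, 451 and 465 CPM in short-wavelength rods and at 247, 367, 404, 403 and 430.4 CPM in white-light rods. The ratio of bin 5 to bin 1 was 1.77 and 1.74 for Rpgr, 1.59 and 1.49 for Rpgrip1, and 1.48 and 1.39 for Cep290. It was 1.45 and 1.39 for Ift88, and 1.42 and 1.32 for Iqcb1. Unc119 ran the other way, at 4110, 2563, 2254, 2131 and 2125 CPM in short-wavelength and 3989, 2406, 2175, 2079 and 2035 CPM in white-light rods. Its ratio was 0.517 and 0.5101, and that of Arl3 0.828 and 0.901. For Unc119, Rpgr, Rpgrip1 and Cep290, most of the difference lay between bins 1 and 2.

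Of the 10 genes, 2 under short-wavelength light (Rpgr and Rpgrip1) and 1 under white light (Rpgr) were higher past 1.5-fold in bin 5 than bin 1, where 13% and 9.15% of all genes were. Lower past 1.5-fold were 1 (Unc119) and 2 (Unc119 and Rp2), where 11.2% and 12.7% were. Malat1 is itself part of the total to which levels are scaled. The median ratio over all genes was 1.15 and 1.099.

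Within the bins, the light ratio of Unc119 had the opposite direction to that over all rods. It ran from 1.03 to 1.07, above 1 in all 5 bins, with an interval that includes 1 in bin 4, against 0.962 over all rods. Rpgr, at 1.06 to 1.13, and Rpgrip1, at 1.03 (1.01 to 1.06) in bin 1 to 1.101 (1.07 to 1.13) in bin 5, were above 1 in all 5 bins and below their ratios over all rods in each. Bbs1 was above 1 in all 5 bins as well, from 1.04 to 1.52, but with an interval above 1 in bin 3 alone. Cep290 lay on both sides of 1, from 0.961 (0.9101 to 1.01) in bin 1 to 1.09 (1.04 to 1.15) in bin 4. Iqcb1 did too, from 0.763 (0.644 to 0.906) in bin 2 to 1.24 (0.981 to 1.57) in bin 5.

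**Figure D3:**
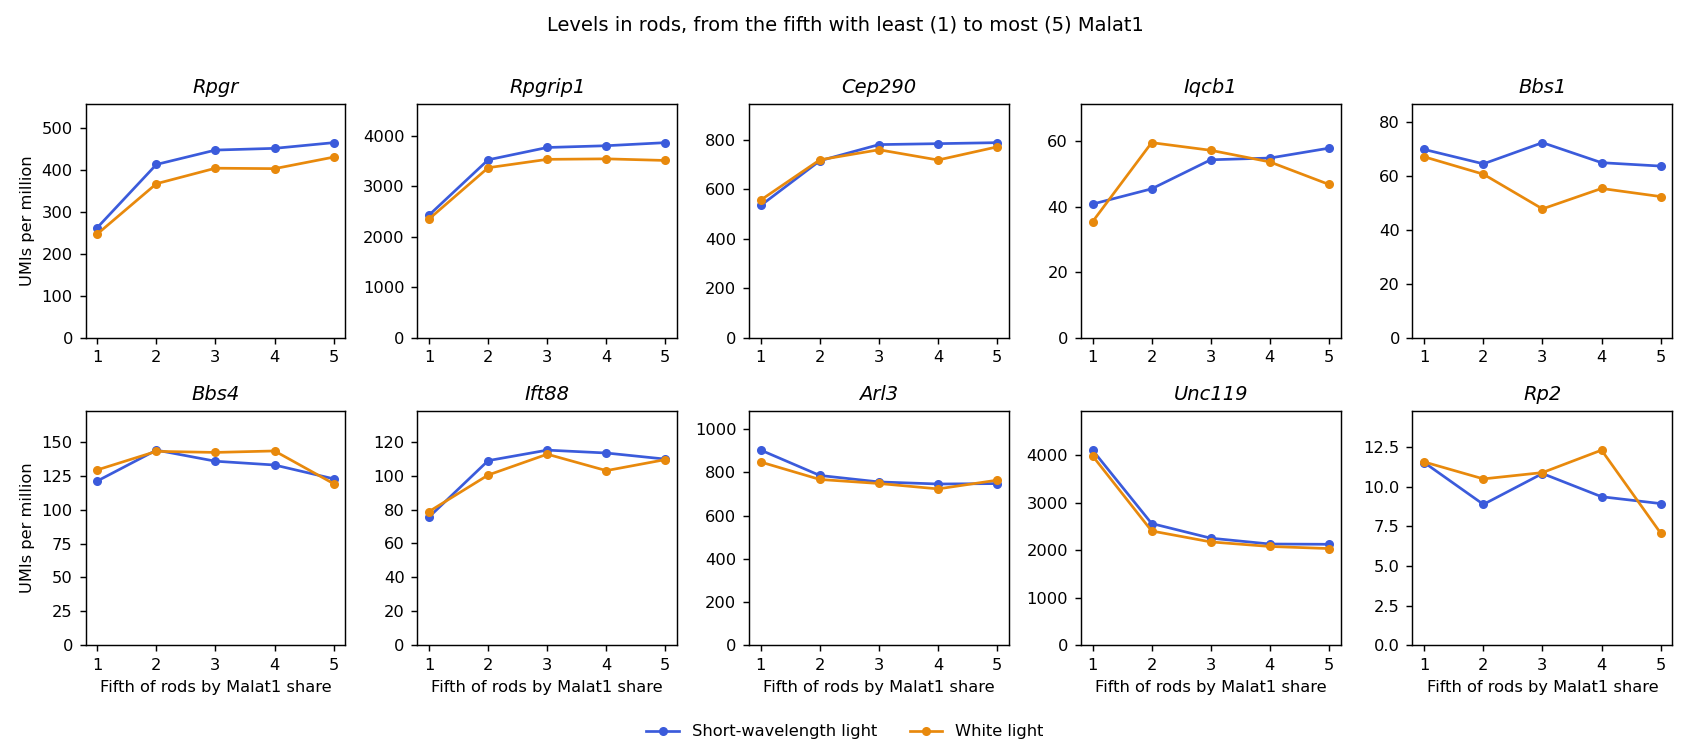
Level of each of the 10 genes in UMIs per 1000000 UMIs in rods of 5 bins by Malat1 share, from least (1) to most (5), with a line for the short-wavelength and one for the white-light library. Rpgr, Rpgrip1, Cep290, Ift88 and Iqcb1 are lowest in bin 1, whereas Unc119 is highest there (4110 and 3989 CPM) and lies slightly higher in short-wavelength rods in each bin.

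In cones, Bbs1 had the widest difference between the libraries. It stood at 72.2 CPM (142 UMIs) in short-wavelength and 40.96 CPM (28 UMIs) in white-light cones, a ratio of 1.76 (1.17 to 2.75). It was 1 of 9 genes with at least 50 UMIs that was higher past 1.5-fold, where 5.7% of all 7442 genes tested were, and none was lower, where 3.06% were. With no limit on rod RNA in cones, no gene was past 1.5-fold, and after thinning Bbs1 had too few UMIs to be tested. Rpgrip1 stood at 2339 and 1921 CPM, a ratio of 1.22 (1.15 to 1.296), and Arl3 at 659.7 and 584 CPM, a ratio of 1.13 (1.01 to 1.27). The Arl3 interval included 1 with doublets kept, with no rod limit, with the rod limit tightened and after thinning. The other 6 genes had intervals that include 1, among them Rpgr (ratio 1.22, 0.991 to 1.52), Cep290 (ratio 1.004, 0.866 to 1.17) and Unc119 (ratio 0.9603, 0.908 to 1.02). Malat1 also differed in cones, at 43425 and 37866 CPM, and its part in these ratios was not tested.

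Bbs1 was also counted in cones grouped by opsin content, and whether its difference varied between these groups was not tested. In cones with at least 90% of their opsin UMIs from Opn1sw, the gene of the short-wavelength opsin, Bbs1 stood at 85.8 CPM (55.5 to 127) in 54 short-wavelength cones and at 10.8 CPM (0.273 to 60.02) in 21 white-light cones, where it rests on 1 UMI. In cones with 10% to under 90% it stood at 74.7 CPM (58.5 to 93.9) and 24.2 CPM (10.45 to 47.7), with 8 white-light UMIs. In cones with under 10% it stood at 63.1 and 73.01 CPM, with 19 white-light UMIs. The last of these pairs had the opposite order. Intervals overlap in the first and the last pair and not in the middle one.

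In bipolar cells, 8 of the 10 genes had at least 50 UMIs, and none was higher or lower past 1.5-fold, where 7.19% and 3.57% of all genes were. All 8 intervals include 1, as for Rpgr (ratio 1.15, 0.905 to 1.48), Iqcb1 (ratio 0.9501, 0.666 to 1.38) and Unc119 (ratio 1.08, 0.972 to 1.21). Bbs1 fell short of that minimum, with 41 UMIs in 35 of 177 short-wavelength cells and 2 UMIs in 2 of 54 white-light cells, at 34.2 and 4.55 CPM. The ratio of 7.52 (1.95 to 64.2) has a wide interval. Bbs1 thus had a ratio above 1 in rods, cones and bipolar cells, and whether it differed between the classes was not tested.

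In Müller glia, 6 of the 10 genes had at least 50 UMIs. Cep290 was higher past 1.5-fold, where 7.36% of all genes were, at 167 and 105 CPM and a ratio of 1.59 (1.02 to 2.54), and none was lower, where 5.38% were. Rpgrip1 stood at 553 and 398 CPM, a ratio of 1.39 (1.11 to 1.76). Both genes were within the pooled background range of rod RNA in Müller glia. Cep290, at 22.8% of its rod level in the short-wavelength library, was above Cngb1 and Esrrb there. With the mean over cells in place of summed UMIs both light ratios were below 1. No light ratio was computed for microglia, with 18 white-light cells.

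A further 67 ciliary genes in 6 lists, all with at least 50 UMIs in rods, give the pathway around the 10 genes. Under short-wavelength light, 13 were higher and 2 lower past 1.1-fold in rods, and 51 had a ratio above 1. Among all 12877 genes tested, 20.2% were higher and 19.5% lower past 1.1-fold, and 6630 had a ratio above 1. These shares were not matched to the UMI counts of the 67 genes. The median log2 ratio was 0.05 over the 10 genes, 0.06 over the 67 genes and 0.0040 over all genes tested. These ratios are over all rods, and values of the 67 genes within the Malat1 bins are not given here.

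Among 18 other connecting cilium and transition zone genes, 6 were higher past 1.1-fold and none lower, with a median log2 ratio of 0.08. Fam161a, which encodes a microtubule-associated protein of the connecting cilium, stood at 856 and 727 CPM, a ratio of 1.18 (1.15 to 1.203). Ahi1, a transition zone gene, stood at 409 and 369.6 CPM, a ratio of 1.11 (1.08 to 1.14), and Cep164, of the distal appendages of the basal body, at 573 and 552 CPM, a ratio of 1.04 (1.01 to 1.06). Of 11 genes of the BBSome and its chaperones, 2 were higher and none lower (median 0.10). Bbs7 stood at 509 and 468 CPM, a ratio of 1.09 (1.06 to 1.12), Ttc8 (Bbs8) at 439.8 and 414 CPM, a ratio of 1.06 (1.03 to 1.09) and Bbs9 at 969.9 and 1039 CPM, a ratio of 0.933 (0.917 to 0.9503), so these subunits did not share 1 direction.

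None of the 14 IFT-B genes was past 1.1-fold in either direction, with a median log2 ratio of 0.0047. Ift20 stood at 97.9 and 90.6 CPM, Ift74 at 134 and 136 CPM and Ift81 at 166 and 158 CPM. Of 6 IFT-A genes, which serve return transport, 2 were higher and none lower (median 0.10). Wdr35 stood at 76.9 and 66.4 CPM, a ratio of 1.16 (1.08 to 1.24), Ift122 at 111 and 102 CPM and Ift43 at 92.95 and 89.3 CPM. Of 8 motor genes, 2 were higher and 1 lower (median 0.10). Dync2h1, the heavy chain of the retrograde motor, stood at 241 and 217 CPM, a ratio of 1.11 (1.07 to 1.16), Wdr60, an intermediate chain of it, at 281 and 256 CPM, and Kifap3, of the anterograde kinesin, at 184 and 188 CPM.

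Of 10 further genes of lipidated cargo transport and ciliary GTPases, 1 was higher and 1 lower (median 0.01). Tulp1, which encodes a photoreceptor transport protein, stood at 1854 and 1762 CPM, a ratio of 1.05 (1.04 to 1.07). Arl13b, which encodes the exchange factor of Arl3, stood at 279.8 and 279.9 CPM and Rab28, a small GTPase gene, at 393 and 388 CPM. In cones, 60 of the 67 genes had at least 50 UMIs, of which 6 were higher and 1 lower past 1.5-fold, where 5.7% and 3.06% of all genes were. Relative to rods, 39 and 40 of the 67 were more than 2-fold lower in bipolar cells of the short-wavelength and white-light library. Of all genes, 22.6% and 25.5% were. In cones 13 of 67 and 19 of 66 were, beside 13.1% and 15.7% of all genes. The minimum of 50 UMIs counted rods as well. In bipolar cells alone, with both libraries summed, 40 of the 67 reached it, so some of the lower genes rest on few UMIs there.

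**Figure D4:**
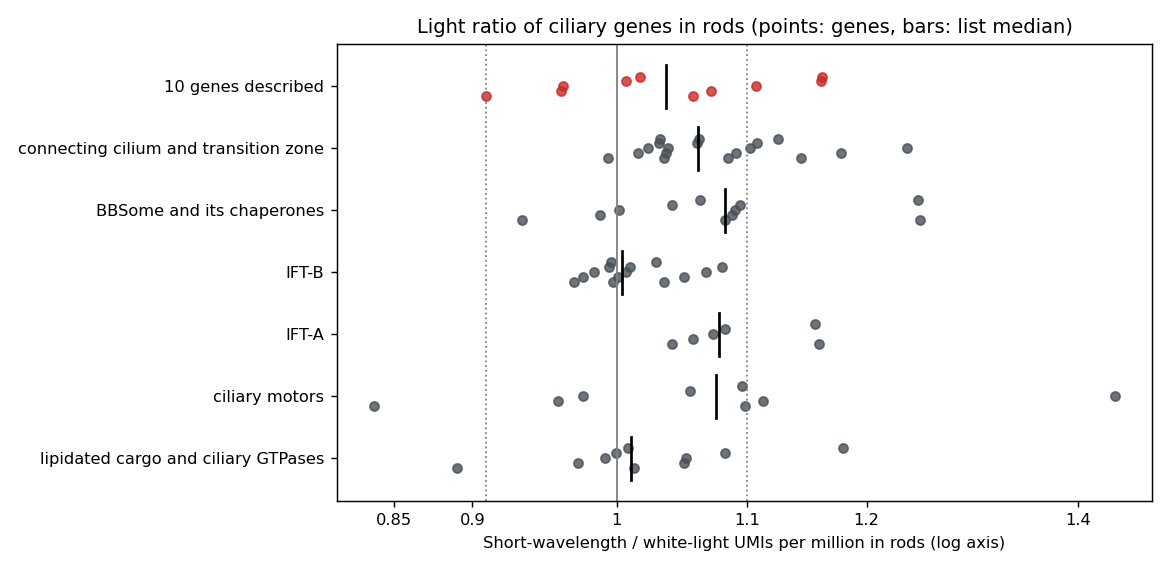
Ratio of short-wavelength to white-light UMIs per 1000000 UMIs in rods (log axis) for the 10 genes and for 67 other ciliary genes in 6 lists, with a point for each gene, a bar for each median and dotted lines at 1.1-fold. Of the connecting cilium list, 17 of 18 genes lie above 1 and 6 past 1.1-fold, and of the IFT-B list none of 14 lies past it.

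Genes with the most similar pattern were sought among 11251 genes by Pearson correlation of log2(CPM + 5) over 8 combinations of class (rods, cones, bipolar cells, Müller glia) and library. The closest was Fam57b for Rpgrip1 (r = 0.997), Abcg4 for Cep290 (r = 0.997), Anp32a for Rpgr (r = 0.995), Usp22 for Iqcb1 (r = 0.995) and Lyrm7 for Bbs1 (r = 0.9901). For the others it was Syt1 for Bbs4 (r = 0.997), Morn1 for Ift88 (r = 0.9897), Tarbp2 for Arl3 (r = 0.994), Pcbp2 for Unc119 (r = 0.997) and Slc39a1 for Rp2 (r = 0.994). Next came Dpysl3 and Wdr78 for Rpgrip1, Tub and Usp54 for Cep290, Polr3a and Napg for Rpgr, Afap1 for Iqcb1 and Rpa3 and Hmg20b for Bbs1, and Bin1 and Dennd6b for Bbs4, Tcp11 and A930006I01Rik for Ift88, Akna and Amz2 for Arl3, Hmgn1 and Fam222a for Unc119 and Cables1 and Sash1 for Rp2. The 8 points share libraries, depth and rod RNA, so high values are a description of these libraries. Between the 10 genes, r ran from -0.964 for Unc119 with Rp2 to 0.968 for Rpgrip1 with Arl3, and was -0.924 for Rpgrip1 with Iqcb1.

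In mm10, Rpgr (ENSMUSG00000031174) lies on chromosome X from 10073621 to 10216920, Rpgrip1 (ENSMUSG00000057132) on chromosome 14 from 52110704 to 52163546, and Cep290 (ENSMUSG00000019971) on chromosome 10 from 100487558 to 100574840. Iqcb1 (ENSMUSG00000022837) lies on chromosome 16 from 36828385 to 36872721, Bbs1 (ENSMUSG00000006464) on chromosome 19 from 4886878 to 4906628, and Bbs4 (ENSMUSG00000025235) on chromosome 9 from 59321990 to 59353508. Ift88 (ENSMUSG00000040040) lies on chromosome 14 from 57424062 to 57517936, Arl3 (ENSMUSG00000025035) on chromosome 19 from 46531096 to 46573198, Unc119 (ENSMUSG00000002058) on chromosome 11 from 78343482 to 78349164, and Rp2 (ENSMUSG00000060090) on chromosome X from 20364481 to 20405653. The span of Rpgr shares 44089 bases with Srpx on the same strand, so the split of their reads is uncertain. Srpx was counted at 5.75 and 4.2 CPM in rods. All of Iqcb1 lies inside the span of Eaf2 on the opposite strand, counted at 14.5 and 13.8 CPM in rods, and whether counting used the strand is not given in the sources used here. Annotated processed pseudogenes lie within the spans of Rp2 and Ift88. Rpgr and Rp2 are X-linked, and rods of both libraries held RNA of the Y-linked gene Eif2s3y, at 207 and 199.6 CPM, with 4 and 0 UMIs of Xist, where 0 UMIs allow up to 0.178 CPM (3 counts).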

How the data were processed

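Each light condition had 1 droplet library (10x Genomics 3′ kit, given in the labels' protocols as v3.1/v4). The deposited files hold raw UMI counts of genes in barcodes, and per the file headers the authors made them with Cell Ranger 9.0.0. The build was mm10, per the submitters' processing notes. Whether intronic reads counted is not given in the sources used here.

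Barcodes needed 300 genes and no more than 20% mitochondrial UMIs. Scrublet (scanpy 1.11.5) scored doublets, and its automatic threshold marked 0% in both libraries. The highest scores were therefore removed at 0.8% per 1000 barcodes, which left 14021 short-wavelength barcodes (12.9% removed) and 5434 white-light barcodes (4.57% removed). Rods needed 10 UMIs over 3 rod markers. Other classes needed 5 UMIs over 3 markers of their own, 0.3% of the barcode, and a rod-marker share under 50% of the rod median. No annotation of cells by the authors was used.

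UMIs were summed by class and library and scaled to CPM. CPM is not per length, so different genes are not compared in level. Ratios carry exact conditional binomial intervals, levels exact Poisson intervals and shares exact Clopper-Pearson intervals. Genes needed 50 UMIs over both sums. Fold limits were 1.1 in rods, 1.5 in other classes (20 cells or more per library), and 2 between classes. List medians are of log2 ratios with 5 CPM added. No p-value was computed. Light ratios in rods and cones, with their intervals and fold limits, were tested on simulated UMI sums drawn with counting error only. The other steps were not simulated. TMM factors of edgeR 4.0.16 were an alternative scaling.

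The 10 genes, the lists and the limits were chosen with earlier results of these data known. The text names the 10 genes, the 3 genes of each list with most UMIs in rods, and the 3 genes most like each of the 10, of which 1 is not reported here. Bbs1 by cone opsin and overlapping genes were picked after their values were seen. Positions (GENCODE M21) and RefSeq promoters were matched for 10 of 10 genes.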

Additional observations from a re-analysis of the deposited data

How the results depend on the processing

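No paired analysis was possible because each light condition has 1 library and the labels carry no replicate numbers. Over all rods, under the 10 alternatives that act on rods, the ratios of Rpgr, Rpgrip1, Cep290, Iqcb1, Bbs1 and Ift88 stayed above 1 and those of Unc119 and Rp2 below it, whereas Bbs4 and Arl3 crossed 1. Within the Malat1 bins, the log2 ratio of Unc119 turned to 0.0431, 0.0911, 0.0517, 0.0354 and 0.0623, that of Cep290 to -0.0578 in bin 1 and -0.0075 in bin 2, and that of Ift88 to -0.0603 in bin 1. Genes higher past 1.1-fold in rods numbered 1, 1, 2, 3 and 4 in bins 1 to 5, where 22.03%, 26.7%, 25.2%, 25.2% and 29.2% of all genes were. Genes lower past 1.1-fold, where Rp2 sits at the limit, numbered 0 with TMM, median-of-ratios scaling and 20 rod-marker UMIs. They also numbered 0 with the mean over cells, doublets kept, thinning and bins 1, 3 and 5. In bin 2 they numbered 2, Rp2 and Iqcb1, the latter at a ratio of 0.763 (0.644 to 0.906). In bins 1 to 5, 26.9%, 19.7%, 19.5%, 20.3% and 23.6% of all genes were lower past 1.1-fold. In cones, genes higher past 1.5-fold numbered 0 with no rod limit, 0 after thinning, where Bbs1 had too few UMIs to be tested, and 2 with the rod limit tightened, where 1 was lower. In bipolar cells 1 gene (Bbs1) was higher with a minimum of 10 UMIs or none. In Müller glia 0 were higher after thinning, where Cep290 had too few UMIs to be tested, and 0 with the mean over cells, where the log2 ratios of Cep290 and Rpgrip1 turned to -0.0376 and -0.26. Genes more than 2-fold lower than in rods numbered 1 in short-wavelength cones with doublets kept, no rod limit or a total without mitochondrial, ribosomal, haemoglobin and marker genes. They numbered 1 in white-light cones with no rod limit, where Unc119 turned to a log2 ratio of 0.20. Genes more than 2-fold higher numbered 1 in white-light bipolar cells with 20 rod-marker UMIs, the mean over cells, the tightened rod limit or that total. After thinning they numbered 1 in white-light cones, and 0 in white-light microglia and in Müller glia of both libraries. Rp2 had too few UMIs to be tested in the white-light cells, and Iqcb1 turned to -0.0873 in short-wavelength Müller glia. The IFT-B median turned to -0.0017 with that total, and the median of all genes to -0.0054 with a minimum of 10 UMIs, -0.0075 with none and -0.0014 with that total. The causes were not tested. Rods with no haemoglobin UMI, chosen after seeing the data, kept Rpgr and Rpgrip1 higher and Rp2 lower past 1.1-fold, and Bbs1 fell short of it. Rp2 outside rods and Bbs1 outside photoreceptors rest on few UMIs, so only large differences were detectable there.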
